A study of Mus musculus with 4 samples.

Results

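Glycolysis and pentose phosphate enzymes were followed in mouse embryonic stem cells that lost Exosc3, which encodes part of the RNA exosome, the complex that trims and degrades RNA from its 3′ end. The gene set was defined by name as 38 symbols covering glucose uptake, each step from glucose to lactate, the regulators of those steps and both branches of the pentose phosphate pathway. Of these, 32 had a row among the 22883 in the deposited table, and the row with the highest mean was used where a symbol had several. Hk1, Pfkl, Pfkp, Tpi1, Eno1 and Rpe had no row under those symbols and are not analysed here.

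The cells were V6.5 mouse embryonic stem cells, grown without feeders, from conditional knockout clones of Exosc3 (Exosc3 CKO) that were maintained in doxycycline. The Exosc3-present group (dox+) kept 0.1 µg/ml doxycycline, and the Exosc3-depleted group (dox-) was without it for 3 days. Each group had 2 libraries, named replicates 1 and 2, of ribosomal RNA-depleted total RNA. All 4 libraries shared the genotype, so loss of doxycycline and loss of Exosc3 cannot be told apart. The number of clones and whether the replicates were separate cultures are not stated, so p-values measure only the spread between these libraries, which may be technical. Values are FPKM (fragments scaled for gene model length and library size), which can be compared between genes because they are divided by length.

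Glycolysis splits glucose into pyruvate and yields ATP and NADH, and lactate dehydrogenase and lactate export let it run on by regenerating NAD+. The pentose phosphate pathway draws glucose-6-phosphate away to make NADPH in its oxidative branch and ribose-5-phosphate for nucleotides, and its non-oxidative branch returns carbon to glycolysis. Pluripotent stem cells are known for a high rate of glycolysis. Several steps are served by paralogous enzymes, and many genes of the pathway are textbook targets of the hypoxia-inducible factors (HIF) and of MYC.

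Exosc3 itself stood at 24.2 and 23.2 FPKM in the Exosc3-present libraries and at 0.635 and 0.691 in the Exosc3-depleted ones, which fits the labels. Library totals recovered from the spacing of the values ran from 38095698 to 60851774 fragments, and a member had between 13 and 224979 fragments in a library (median 2058.5). The rows listed held 49.7% and 51.8% of these totals in Exosc3-present and 42.4% and 44.0% in Exosc3-depleted libraries. FPKM scale with the full totals, and the part of this difference in the fold changes was not tested. Between the 2 libraries of a group, log2 values differed with an SD over rows of 0.188 in Exosc3-present and 0.432 in Exosc3-depleted cells. Of 10 stem cell markers 7 had a row, and their mean levels in Exosc3-depleted cells ran from 21.6 to 1087 FPKM. Called lower were 5 of the 7, beside 30.1% of all tested rows. Of the 8 fibroblast markers, Lum and Dcn were at 0 in all libraries, and the summed level was 6.48 and 7.24 FPKM against 11.9 and 8.89. Of the 4 tested, Mmp2 (log2 0.99, adjusted p = 0.0106) and Twist1 (1.17, 0.00429) were called higher and Thy1 (-2.01, 0.000351) lower. Of all tested rows 12.6% were called higher and 30.1% lower. The fourth, Col1a1, did not pass (log2 0.42, adjusted p = 0.142). With a mean of 0.438 FPKM in Exosc3-present cells, Col1a1 entered the test through its level in Exosc3-depleted cells. Twist1 had a mean of 0.233 FPKM in Exosc3-present cells and entered the test through its level in Exosc3-depleted cells. Thy1, at 0.179 FPKM in Exosc3-depleted cells, entered it through its level in Exosc3-present cells. The erythroid and muscle markers summed to at most 0.925 FPKM in any library, with Hbb-b1 at 0. The part of these shifts in the results was not tested, and in bulk RNA fewer cells of a type and less RNA per cell cannot be told apart.

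Most of the pathway was lower in Exosc3-depleted cells. Of the 32 members 19 fell and 0 rose at an adjusted p under 0.05 by limma, or 59.4%, beside 30.1% of all 9336 tested rows called lower and 12.6% called higher. At an unadjusted p under 0.05, in either direction, the count was 22 of 32 members and 4801 of the 9336 tested rows. Their median log2 fold change was -0.92, against -0.27 for all tested rows. The falls ranged from 1.59-fold for Minpp1 to 7.74-fold for Aldoc, as ratios of mean FPKM, and 16 of the 19 were at least 2-fold. In 28 members both Exosc3-depleted libraries lay below both Exosc3-present ones, as they did in 50.9% of all tested rows; in 3 members they lay above, as in 22.2%. Together the members held 1.44% and 1.55% of the summed FPKM in Exosc3-present cells and 0.768% and 0.663% in Exosc3-depleted cells. The 50 highest rows of the deposited data held 45% and 43.7% in Exosc3-present and 52.2% and 53.9% in Exosc3-depleted libraries. The members' shares therefore depend on other rows too, and the size of that part was not tested.

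**Figure D1:**
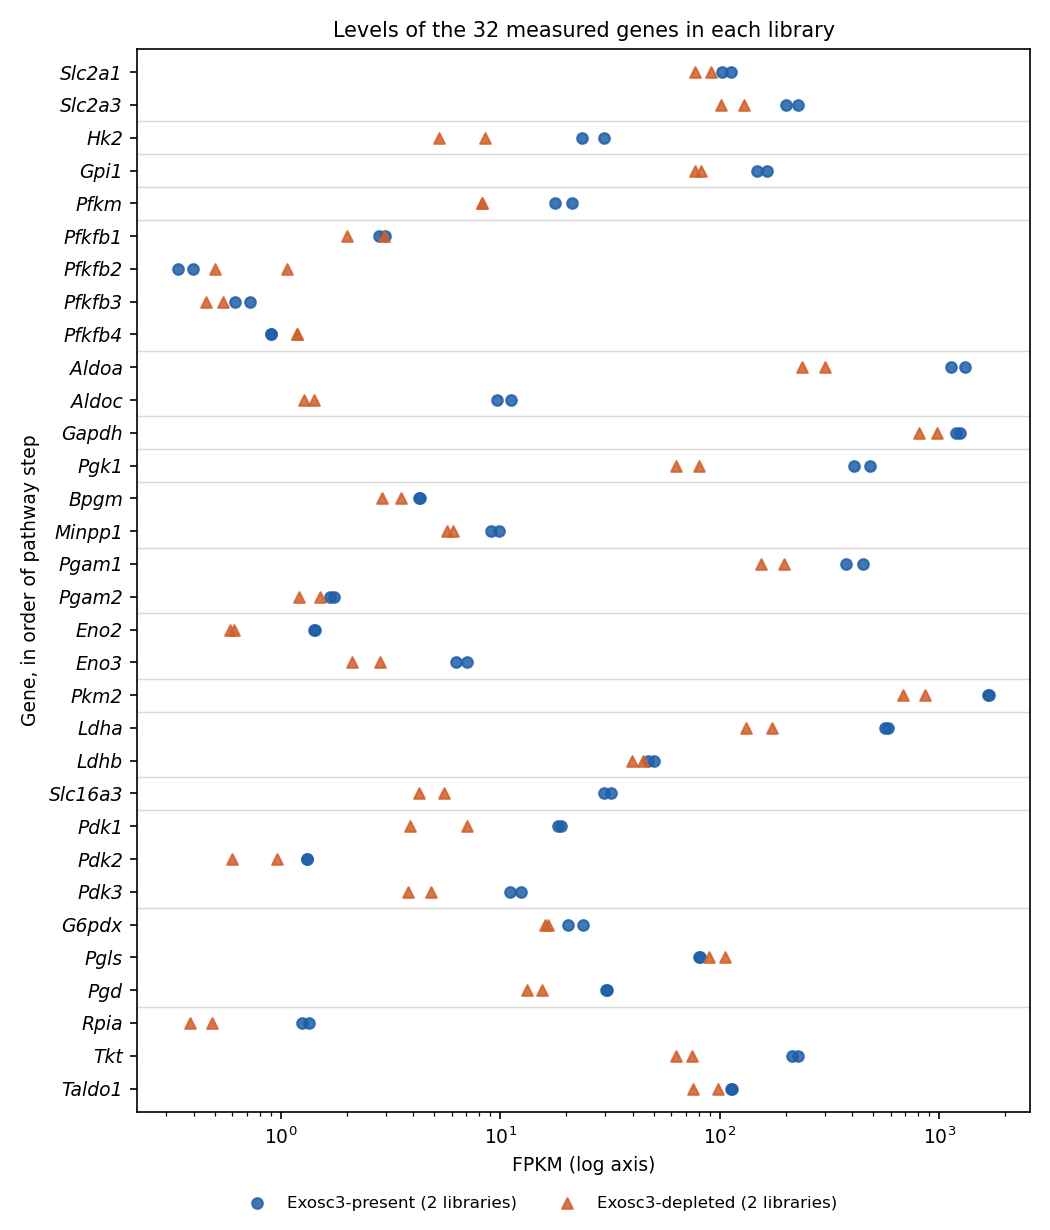
FPKM on a log axis of the 32 genes in each of the 4 libraries, in pathway order with lines between steps; circles are Exosc3-present and triangles Exosc3-depleted libraries. The triangles lie left of the circles in 28 genes, right of them in Pfkfb2, Pfkfb4 and Pgls, and among them in Pfkfb1.

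The 11 called genes on the route from glucose to lactate came from 14 measured there, with a median log2 fold change of -1.21 over the 14. For the 6 pentose phosphate genes 3 were called and the median was -0.69. A class of 9 regulators and side-reaction genes held the 4 PFKFB genes, 3 pyruvate dehydrogenase kinases, Bpgm and Minpp1. In that class 3 were called, Minpp1 among them, and the median was -0.38. For the 3 transporters 2 were called and the median was -0.89. Of all tested rows 30.1% were called lower, and the count for the class of regulators and side-reaction genes lies near that share. These classes were compared by count only. Because the median tested row was itself at -0.27, each log2 fold change below can also be read against that value. With median-of-ratios scaling the median row moved to 0.01, and 17 members fell and 2 rose. Beside them, 1589 of the 9336 tested rows were called lower and 1756 higher under this scaling. Of all called rows 52.5% were then higher, in place of 29.6%.

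**Figure D2:**
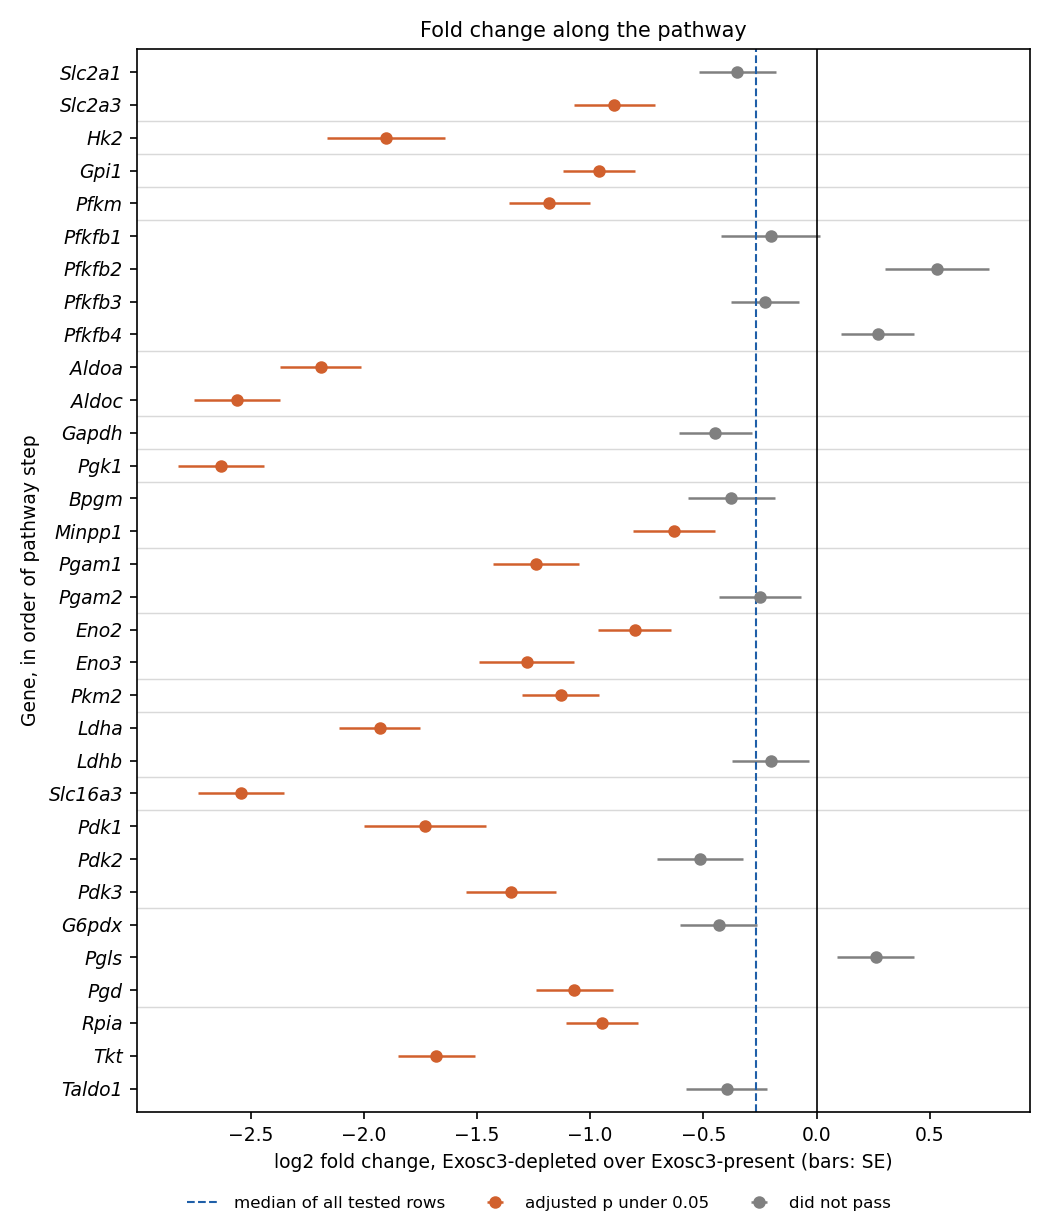
Log2 fold change of each gene on the log2(FPKM + 0.5) scale with its SE, in pathway order; orange points passed an adjusted p of 0.05 and grey ones did not, and the dashed line is the median of all tested rows at -0.27. Pgk1, Aldoc and Slc16a3 lie farthest left, and Ldhb, Pfkfb1 and Pgam2 lie near the dashed line.

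Promoter sequence is shown for 4 genes because 2 of them fell strongly (Pgk1, Ldha) and the other two did not pass although they serve the same steps or the entry to the pathway (Ldhb, Slc2a1). Each run is the 250 bases before the first start that RefSeq lists for the gene on GRCm38.p6, which is not the mm9 build of the study. Capitals mark ACGTG and GCGTG, the core letters bound by HIF, on either strand; CACGTG, the letters of an E-box bound by MYC, contains ACGTG on both strands and counts as 2 overlapping matches. Pgk1 lies at chrX:106186850-106187099 (+), Ldha at chr7:46845554-46845803 (+), Ldhb at chr6:142507958-142508207 (-) and Slc2a1 at chr4:119108495-119108744 (+).
Pgk1: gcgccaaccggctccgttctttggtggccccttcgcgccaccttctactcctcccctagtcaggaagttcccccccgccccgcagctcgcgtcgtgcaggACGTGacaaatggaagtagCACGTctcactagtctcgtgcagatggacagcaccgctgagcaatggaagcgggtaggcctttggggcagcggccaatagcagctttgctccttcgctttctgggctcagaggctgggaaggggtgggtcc
Ldha: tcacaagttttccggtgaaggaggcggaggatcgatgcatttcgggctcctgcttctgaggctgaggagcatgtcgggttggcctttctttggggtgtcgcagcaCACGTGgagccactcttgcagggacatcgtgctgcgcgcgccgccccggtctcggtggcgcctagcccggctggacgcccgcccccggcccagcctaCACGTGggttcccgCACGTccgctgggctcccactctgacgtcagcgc
Ldhb: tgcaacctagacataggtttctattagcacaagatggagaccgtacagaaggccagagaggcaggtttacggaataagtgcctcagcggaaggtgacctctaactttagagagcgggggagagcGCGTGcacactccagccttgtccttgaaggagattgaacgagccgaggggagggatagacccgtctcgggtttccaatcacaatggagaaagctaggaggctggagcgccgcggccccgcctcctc
Slc2a1: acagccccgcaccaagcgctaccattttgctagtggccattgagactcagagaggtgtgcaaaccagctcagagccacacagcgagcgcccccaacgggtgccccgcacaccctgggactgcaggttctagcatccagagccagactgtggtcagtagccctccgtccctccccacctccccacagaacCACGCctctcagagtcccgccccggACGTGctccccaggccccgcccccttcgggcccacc

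Pgk1 had 2 matches, starting 150 and 131 bases before the start, and Ldha had 5, of which 4 form 2 E-box letters. Ldhb had 1 match at 126 bases and Slc2a1 had 2, at 61 and 36 bases. Of the 38 symbols 37 had a promoter in the table (Pkm2 through its newer symbol Pkm, Slc2a3 not among them), and 73% of the first-listed promoters held at least 1 match, against 38.6% of all 32851 promoters of this length and 59.8% of those of genes in tested rows. Within the set the letters were about as frequent in promoters of genes that fell (14 of 18) as in those that did not pass (10 of 13), with means of 1.56 and 1.23 matches. Matches are a description of these windows, and enhancers, introns and other starts lie outside them.

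Glucose enters through 2 measured transporters. Slc2a3, the high-affinity transporter GLUT3, was at 200.0 and 227 FPKM in Exosc3-present and 101 and 129 in Exosc3-depleted libraries (log2 -0.89, SE 0.18, limma adjusted p = 0.00843). Slc2a1, the widely expressed GLUT1, was at 102 and 112 against 91.3 and 76.8 FPKM and did not pass (log2 -0.35, 95% interval -0.76 to 0.05, adjusted p = 0.139). Slc2a3 was the more abundant of the pair in every library, but its share of their summed FPKM was 66.2% and 66.9% in Exosc3-present and 52.6% and 62.7% in Exosc3-depleted cells. The call of Slc2a3 ended without Exosc3-present replicate 2 (adjusted p = 0.0783) and under the 3 other scalings (0.0595 to 0.0959).

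Hexokinase traps glucose in the cell as glucose-6-phosphate. Hk2, the isoform often raised in proliferating cells, went from 23.5 and 29.8 FPKM to 5.25 and 8.54, a 3.87-fold fall (log2 -1.90, SE 0.26, adjusted p = 0.00179). Gpi1, the isomerase that makes fructose-6-phosphate, fell 1.96-fold from 147 and 164 to 82.1 and 77.0 FPKM (log2 -0.96, adjusted p = 0.00382). The muscle-type subunit Pfkm was the 1 phosphofructokinase gene with a row, and it fell from 17.7 and 21.2 to 8.29 and 8.22 FPKM (log2 -1.18, adjusted p = 0.00278). Without Exosc3-present replicate 2 the adjusted p was 0.055 for Gpi1 and 0.0538 for Pfkm.

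The PFKFB enzymes make and break fructose-2,6-bisphosphate, the main activator of phosphofructokinase. All 4 were low, and 0 of 4 passed. Pfkfb1, the most abundant, was at 2.97 and 2.81 against 2.01 and 2.95 FPKM, the 1 member whose groups overlapped. Pfkfb3, the isoform with the strongest kinase bias, was at 0.615 and 0.723 against 0.456 and 0.543 FPKM (log2 -0.23). Pfkfb4 was higher in both Exosc3-depleted libraries, at 1.19 in each against 0.905 and 0.900 (log2 0.27, adjusted p = 0.213). Pfkfb2 was at 0.340 and 0.399 against 0.503 and 1.07 FPKM (log2 0.53, adjusted p = 0.10), so the Exosc3-depleted libraries were both higher but far apart. Pfkfb2 was the 1 member below a mean of 0.5 FPKM in Exosc3-present cells and entered the test through its level in Exosc3-depleted cells. It passed upward without Exosc3-depleted replicate 1 (adjusted p = 0.000115), and after median-of-ratios scaling both Pfkfb2 (0.0258) and Pfkfb4 (0.0485) passed upward.

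Aldolase cuts fructose-1,6-bisphosphate into triose phosphates, and both measured isoforms fell strongly. Aldoa, the main isoform, went from 1129 and 1308 to 301 and 236 FPKM (log2 -2.19, SE 0.18, adjusted p = 0.000383). Aldoc, the isoform best known from brain, went from 9.65 and 11.2 to 1.42 and 1.27 FPKM (log2 -2.56, SE 0.19, adjusted p = 0.00029). Aldoa supplied over 99% of the summed aldolase FPKM in every library, with Aldoc at 0.847% and 0.849% in Exosc3-present and 0.469% and 0.537% in Exosc3-depleted cells. A further row under the symbol Aldoa had a mean of 0.554 FPKM in Exosc3-present and 0.0886 in Exosc3-depleted cells and was too low to be tested.

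The next steps earn ATP and NADH, and their genes moved by unlike amounts. Gapdh, which oxidises glyceraldehyde-3-phosphate and is often used as a reference gene, was at 1192 and 1240.2 against 979.8 and 811 FPKM (log2 -0.45, 95% interval -0.83 to -0.06, adjusted p = 0.0637), 0.18 below the median row. Pgk1, which makes the first ATP of the pathway, fell 6.20-fold from 408 and 482 to 63.0 and 80.6 FPKM (log2 -2.63, SE 0.19, adjusted p = 0.000283). These 2 consecutive enzymes thus stood at 73.6% and 16.1% of their Exosc3-present means. Another row with the symbol Gapdh went from a mean of 37.0 to 22.0 FPKM (log2 -0.77, adjusted p = 0.0348). Gapdh, Pgk1, Pgam1, Aldoa and Ldha have near-identical processed copies in the genome, and the handling of reads that match several places is not stated, so their levels carry that uncertainty.

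Phosphoglycerate mutase and enolase rearrange the phosphate before the last ATP step. Pgam1, the main mutase, fell from 374 and 450.4 to 197 and 154 FPKM (log2 -1.24, adjusted p = 0.00287). Pgam2, the muscle isoform, stayed below 2 FPKM and did not pass, at 1.67 and 1.74 against 1.51 and 1.21 (log2 -0.25, adjusted p = 0.298). Eno3, the muscle enolase, fell from 7.07 and 6.26 to 2.84 and 2.11 FPKM (log2 -1.28, adjusted p = 0.00344), and Eno2, the neuronal one, fell from 1.41 and 1.43 to 0.609 and 0.589 (log2 -0.80, adjusted p = 0.00693). Eno2 lost its call without Exosc3-present replicate 1 (adjusted p = 0.0678) or 2 (0.0883). These are the minor enolases: the row listed as Gm5506, a name that RefSeq pairs with a copy of Eno1 (Eno1b), was at 1381 and 1586 FPKM against 708 and 613 (log2 -1.17, adjusted p = 0.00207). Gm5506 is no member of the set, and which locus supplied its reads cannot be told from the table.

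Side reactions handle 2,3-bisphosphoglycerate. Bpgm, which makes it, was at 4.27 and 4.31 against 2.88 and 3.53 FPKM and did not pass (log2 -0.38, adjusted p = 0.155). Minpp1, a phosphatase that can remove it, had the smallest called fall, from 9.02 and 9.85 to 5.74 and 6.10 FPKM (log2 -0.63, adjusted p = 0.0279). The Minpp1 call ended without either Exosc3-present replicate (adjusted p = 0.26 and 0.39) and under the other scalings (0.174 to 0.22).

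Pyruvate kinase closes the pathway and lactate dehydrogenase turns pyruvate into lactate. Pkm2, the symbol here for the gene of both PKM1 and PKM2, had the highest level of the set in Exosc3-present cells and fell from 1687 and 1672 to 861 and 686 FPKM (log2 -1.13, SE 0.17, adjusted p = 0.00264). Ldha, whose product favours lactate formation, fell 3.78-fold from 585 and 568 to 173 and 131 FPKM (log2 -1.93, SE 0.18, adjusted p = 0.000543). Ldhb, the isoform that favours the reverse reaction, was at 46.9 and 49.9 against 44.6 and 39.6 FPKM (log2 -0.20, 95% interval -0.60 to 0.19, adjusted p = 0.36), and its sign turned positive under the 3 other scalings. The share of Ldhb in the summed FPKM of both genes was therefore 7.42% and 8.08% in Exosc3-present and 20.5% and 23.1% in Exosc3-depleted libraries. Ldha remained the more abundant of the pair in all 4.

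Lactate leaves the cell through monocarboxylate transporters. Slc16a3 (MCT4), suited to lactate export, fell 6.28-fold, from 29.7 and 31.9 to 5.54 and 4.26 FPKM (log2 -2.54, SE 0.19, adjusted p = 0.000296). The related Slc16a1 (MCT1), from the list of neighbouring genes, fell from 16.7 and 20.6 to 2.91 and 5.23 FPKM (log2 -2.11, adjusted p = 0.00156), and Emb, an accessory protein of these transporters, fell by 1.28 on the log2 scale. Bsg, the main chaperone of MCT1 and MCT4, was at 164 and 163 against 196 and 158 FPKM (log2 0.11, adjusted p = 0.636). Of the 4 tested genes of monocarboxylate and pyruvate transport 2 fell and 0 rose, beside 30.1% of all tested rows called lower and 12.6% called higher. The fourth was Brp44, a pyruvate carrier subunit (log2 -0.22).

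Pyruvate dehydrogenase kinases switch off the entry of pyruvate into mitochondrial oxidation. Pdk1 fell from 18.3 and 18.8 to 3.87 and 7.06 FPKM (log2 -1.73, SE 0.27, adjusted p = 0.00311), and Pdk3 from 11.1 and 12.4 to 3.79 and 4.85 (log2 -1.35, adjusted p = 0.00245). Pdk2 was near 1 FPKM, at 1.31 and 1.32 against 0.963 and 0.600, and did not pass (log2 -0.52, adjusted p = 0.0683). In order of level Pdk1 stood above Pdk3 and Pdk3 above Pdk2 in every library, with Pdk1 and Pdk3 close to each other in Exosc3-depleted replicate 1. Of 5 tested genes of the dehydrogenase complex and its phosphatases 3 fell, beside 30.1% of all tested rows. These were Pdp2, a phosphatase that reactivates the complex (log2 -1.56, adjusted p = 0.00119), Dlat (-0.95) and Pdhx (-0.75). Pdhb (-0.39) and Dld (-0.30) did not pass.

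**Figure D3:**
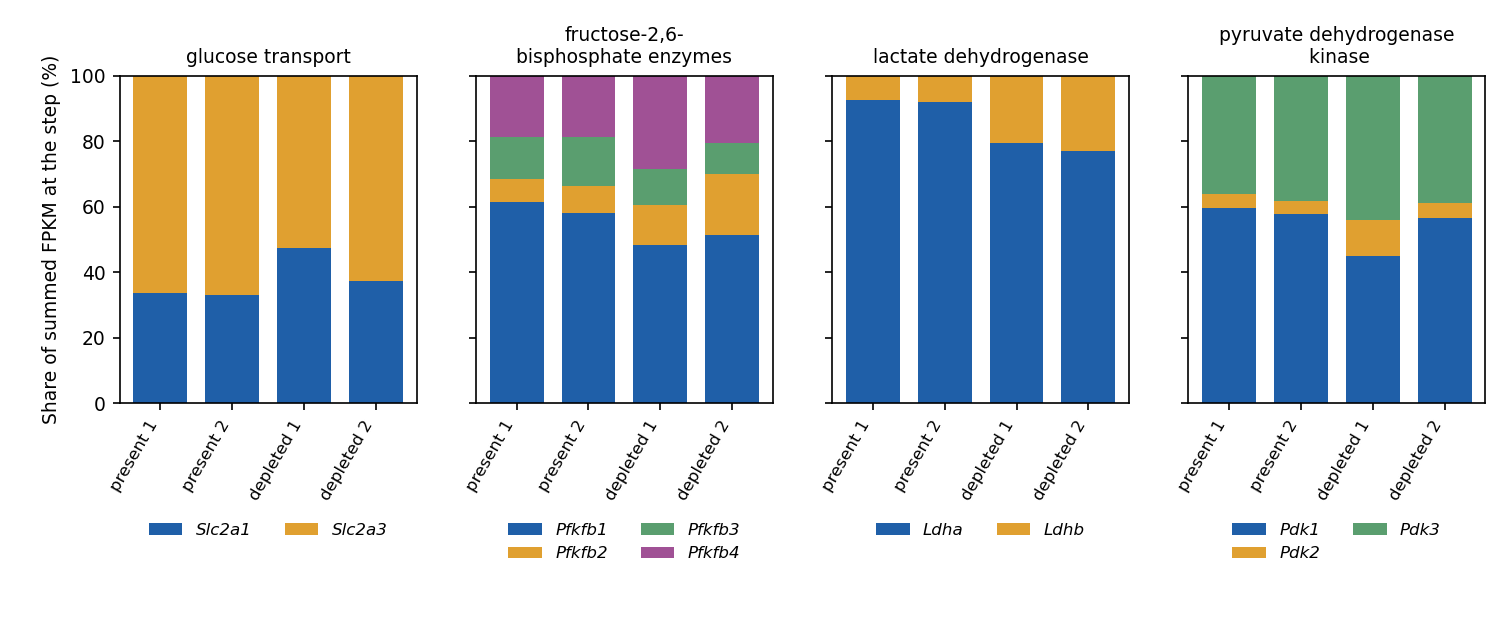
Share of each paralogue in the summed FPKM of its step (%), 1 bar per library, for glucose transport, the fructose-2,6-bisphosphate enzymes, lactate dehydrogenase and pyruvate dehydrogenase kinase. Ldhb takes 7.42% and 8.08% of the lactate dehydrogenase bars in Exosc3-present and 20.5% and 23.1% in Exosc3-depleted libraries, and the 2 Exosc3-depleted bars differ from each other most in glucose transport and the kinases.

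Paralogue choice was compared through the log2 ratio of each of 14 pairs of members at the same step. In 12 of the 14 pairs the ratios of the 2 groups did not overlap. The levels of single rows did not overlap in 50.9% (lower) and 22.2% (higher) of all tested rows. That is an unlike measure, since a shift common to both genes cancels in a ratio, and no such share was computed for ratios of other gene pairs. The pairs share genes, with 6 of them made from the 4 PFKFB genes. With 2 libraries against 2 the exact two-sided permutation test cannot go below 0.333, which each of the 12 pairs reached (0.389 adjusted over the 14), so no pair could pass. The largest shift was in Ldha over Ldhb, whose log2 ratio was 3.63 and 3.49 in Exosc3-present and 1.95 and 1.72 in Exosc3-depleted libraries, a difference of -1.73. Pdk1 over Pdk2 followed, at 3.38 and 3.41 against 1.58 and 2.78 (difference -1.21), and then Pgam1 over Pgam2, at 7.43 and 7.65 against 6.62 and 6.49 (-0.99). In these 3 pairs the ratio of the more abundant paralogue to its partner was lower in both Exosc3-depleted libraries. The Pdk1 over Pdk2 difference was -0.61 without Exosc3-depleted replicate 1 and -1.81 without replicate 2. Aldolase went the other way, with Aldoa over Aldoc at 6.80 and 6.81 against 7.30 and 7.06 (0.38). The size of that difference moved with the pseudocount, at 0.673 with 0.1 and 0.096 with 1. Pfkfb1 over Pfkfb3 (0.02) and Pfkfb2 over Pfkfb4 (0.26) overlapped between groups.

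The pentose phosphate pathway divided by gene. In its oxidative branch G6pdx, the committing and NADPH-yielding enzyme, was at 20.4 and 23.8 against 16.0 and 16.4 FPKM and did not pass (log2 -0.43, 95% interval -0.85 to -0.02, adjusted p = 0.0852). Pgls, which hydrolyses the lactone, was higher in both Exosc3-depleted libraries, at 105 and 88.8 against 80.3 and 80.9 FPKM (log2 0.26, adjusted p = 0.248). Pgd, the other NADPH-yielding enzyme, fell from 30.5 and 30.3 to 15.4 and 13.2 FPKM (log2 -1.07, SE 0.17, adjusted p = 0.00354). Pgls passed upward with quantile normalization (adjusted p = 0.0116), with scaling without the 50 highest rows (0.0238) and without Exosc3-depleted replicate 2 (0.0317).

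In the non-oxidative branch Tkt, the transketolase that moves 2-carbon units, fell 3.20-fold from 213 and 228 to 74.6 and 62.9 FPKM (log2 -1.68, SE 0.17, adjusted p = 0.000643). Taldo1, the transaldolase that works beside it, was at 112 and 114 against 97.8 and 75.1 FPKM (log2 -0.40, 95% interval -0.83 to 0.04, adjusted p = 0.123). Taldo1 was thus at 76.5% of its Exosc3-present mean and Tkt at 31.2%. Rpia, the ribose-5-phosphate isomerase, fell from 1.35 and 1.25 to 0.385 and 0.484 FPKM (log2 -0.95, adjusted p = 0.00397), on 13 and 18 fragments in the Exosc3-depleted libraries. With an Exosc3-depleted mean of 0.435 FPKM, Rpia entered the test through its level in Exosc3-present cells. Of 6 tested neighbours of the pathway 4 fell and 1 rose, beside 30.1% of all tested rows called lower and 12.6% called higher. The p53 target Tigar, listed as 9630033F20Rik, fell from 10.4 and 11.7 to 4.19 and 4.74 FPKM (log2 -1.22, adjusted p = 0.00267). H6pd, the endoplasmic reticulum counterpart of G6pdx, fell by 1.04 on the log2 scale. Shpk, the sedoheptulose kinase, rose from 0.307 and 0.293 to 0.944 and 1.04 FPKM (log2 0.90, adjusted p = 0.00368); below 0.5 FPKM in Exosc3-present cells, it entered the test through its level in Exosc3-depleted cells.

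Of the 13 members that did not pass, 10 were below 0 and 3 above. Calls among them depended on the Exosc3-depleted libraries. Without Exosc3-depleted replicate 1, Slc2a1 (adjusted p = 0.0153), Gapdh (0.00807), Pgam2 (0.0309), Pdk2 (0.000499), G6pdx (0.0297) and Taldo1 (0.00417) were called lower. Without Exosc3-depleted replicate 2, Pfkfb1 (0.0177), Bpgm (0.00822) and G6pdx (0.0197) were. Such fits take their spread from the closer Exosc3-present pair. Slc2a1, Taldo1, Pgam2, Pfkfb1 and Ldhb turned to above 0 under at least 1 other scaling. A gene that did not pass is not shown to be unchanged.

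**Figure D4:**
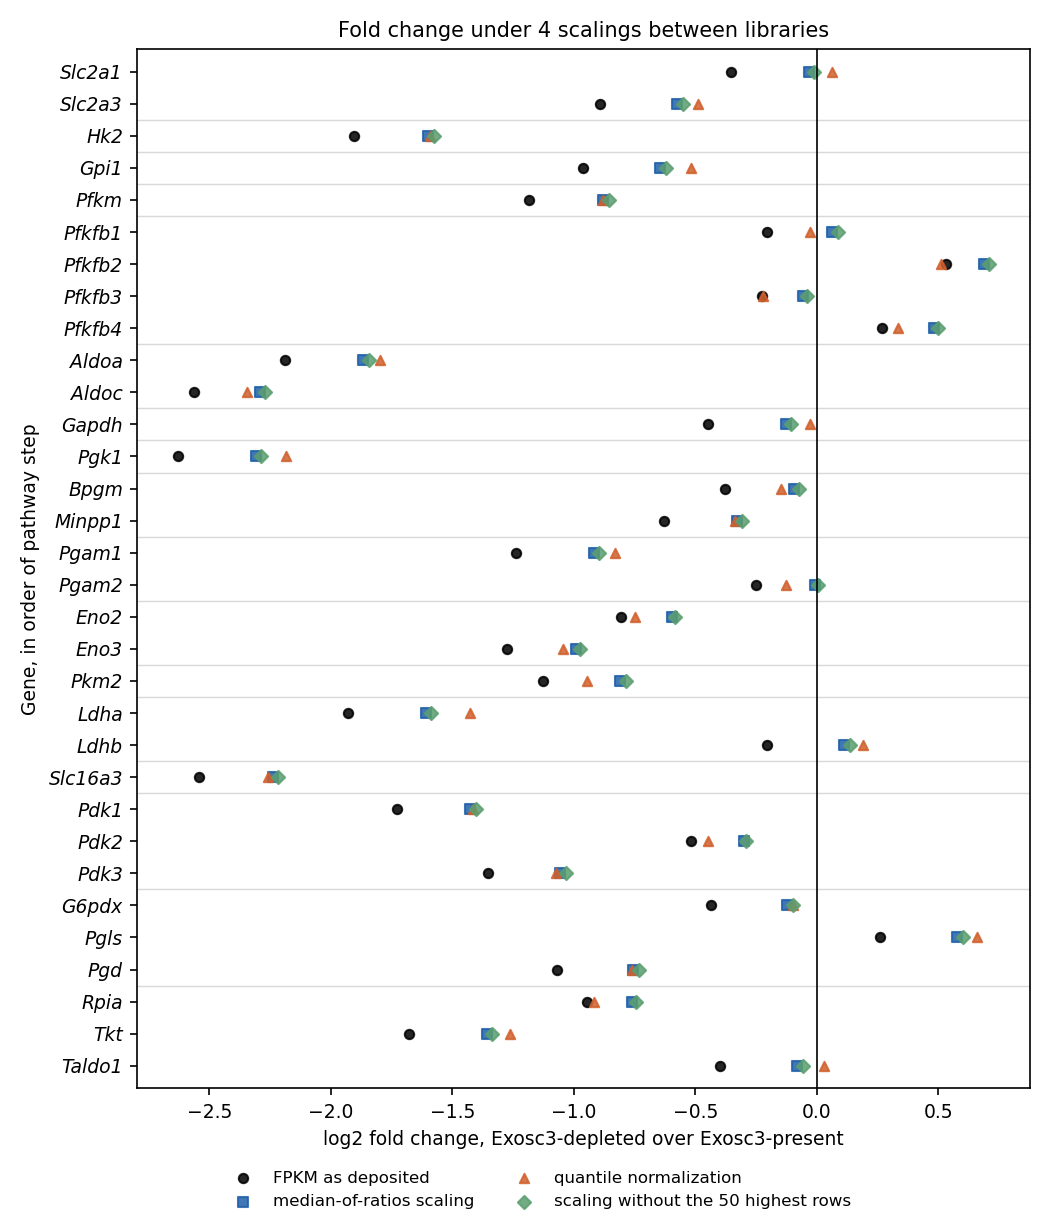
Log2 fold change of each gene with FPKM as deposited and after 3 other scalings between libraries, in pathway order. The other scalings shift most genes to the right. Pgk1, Aldoc, Slc16a3, Aldoa, Ldha, Hk2, Pdk1, Tkt and Pdk3 stay below -1 under all 4. Ldhb, Slc2a1, Taldo1, Pgam2 and Pfkfb1 cross 0 under some of the scalings.

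Further paralogues of the same steps were measured outside the set. Of 16 such genes 13 had a row and 5 were tested, of which 1 fell and 0 rose, beside 30.1% of all tested rows called lower and 12.6% called higher. Adpgk, which phosphorylates glucose with ADP, fell from 15.5 and 16.9 to 7.99 and 7.14 FPKM (log2 -1.05, adjusted p = 0.00402). Slc2a4, another glucose transporter, was at 0.326 and 0.436 against 0.846 and 0.608 FPKM and did not pass (log2 0.47, adjusted p = 0.0596). Below 0.5 FPKM in Exosc3-present cells, Slc2a4 entered the test through its level in Exosc3-depleted cells. Slc2a8, of the same family, was lower in both Exosc3-depleted libraries and did not pass either (log2 -0.44, adjusted p = 0.115). Pgam5, a mitochondrial protein phosphatase of the mutase family, was at 18.7 and 17.9 against 17.4 and 17.6 FPKM (log2 -0.06, adjusted p = 0.796). The liver transporter Slc2a2 and the testis gene Pgk2 were at 0 in every library. Pdk4 was at 0.695 and 0.645 against 0.395 and 0.545 FPKM (log2 -0.27, adjusted p = 0.202).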

How the data were processed

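The authors deposited 1 table of FPKM values with 1 column per library, identified by UCSC gene model and symbol per the file headers. Tools listed in the submitters' processing notes are STAR, Bowtie2, bedtools, Picard and edgeR, with mm9 as the genome build but no version or role, so the step that made the FPKM is not given in the sources used here. The members and gene lists were chosen with earlier results of these data known. All 38 members were to be named, and of each neighbouring list at most the 4 genes with the smallest p. More are named for further paralogues, for the dehydrogenase complex and for gluconeogenesis, glycogen and the glycerol branch.

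Groups were compared on log2(FPKM + 0.5) by limma-trend (limma 3.58.1, R 4.3.3) in the 9336 rows whose mean reached 0.5 FPKM, two-sided, with Benjamini-Hochberg adjustment over all tested rows and a threshold of 0.05. Fold changes on this scale understate the change of low genes; N-fold values are ratios of mean FPKM, and 95% intervals are unadjusted. Whole fragments and model lengths were worked out from the step size between values (15471 of 15471 rows above 0, tolerance 0.004 of a fragment, wider at high counts) and served for depth and for limma-voom. The programs were tested on simulated data. Paralogue ratios used exact permutation tests (scipy 1.17.1). Promoters came from RefSeq (GRCm38.p6), matched by symbol. Alternatives covered pseudocount, filter, scaling, variance model, replicate block, limma-voom, a symbol's several rows and each library left out.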

Additional observations from a re-analysis of the deposited data

How the results depend on the processing

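The direction of the 19 called members held under each alternative that gave a value per gene, except that Eno2 and Rpia were not tested when rows needed a mean of 2 FPKM. The count of members called lower ran from 14 (without Exosc3-present replicate 2) to 25 (without Exosc3-depleted replicate 1) with 1 library left out, and was 17 under each other scaling. Members called higher were 2 with median-of-ratios scaling, 1 with quantile normalization, 1 with scaling without the 50 highest rows and 1 with the replicate block, and 0 to 1 with a library left out. The members' median log2 fold change was -1.03 with a pseudocount of 0.1, -0.79 with 1 and -1.13 when rows needed a mean of 2 FPKM. It was -0.62, -0.63 and -0.60 with these 3 scalings, -1.03 with limma-voom, and -0.94 to -0.84 with a library left out. Of the 9336 tested rows, 1756, 1578 and 1544 were called higher under the same 3 scalings. Rows called lower were 1589, 1782 and 1330 under the 3 scalings and 1082 to 4715 with a library left out; rows called higher were 667 when rows needed 2 FPKM and 668 to 2183 with a library left out.

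Signs turned for genes that had not passed: Pfkfb1 was at 0.064 with median-of-ratios scaling, 0.0869 with scaling without the 50 highest rows and -0.431 to 0.0256 with a library left out. Ldhb was at 0.11, 0.19 and 0.14 under the 3 scalings, Slc2a1 at 0.0647 and Taldo1 at 0.0323 with quantile normalization, and Pgam2 at 0.00676 with scaling without the 50 highest rows. The ratio of Pfkfb1 over Pfkfb3 turned with a pseudocount of 1 (-0.018) and ran from -0.14 to 0.19 with a library left out; Pfkfb2 over Pfkfb4 ran from -0.06 to 0.59.

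With the replicate number as a block 21 members were called lower, with Gapdh (adjusted p = 0.0242) and Pdk2 (0.0273) added, and Pfkfb2 was called higher (0.0167). Calls over all 9336 tested rows increased too, from 2806 to 3468 lower and from 1177 to 1431 higher. The labels do not say what a replicate number stands for, and deviations of same-numbered libraries had a correlation of 0.244. The cause of the changes was not tested, other than that fewer libraries or rows enter some fits. Depth limited Rpia (13 and 18 fragments in the Exosc3-depleted libraries) and Pgam2 (52 and 46) most.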

Other observations

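Genes of branches that store or remake glucose were also measured. Of 11 tested genes of gluconeogenesis, glycogen and the glycerol branch 7 fell and 2 rose (median log2 -0.80), beside 30.1% of all tested rows called lower and 12.6% called higher. Pck2, the mitochondrial phosphoenolpyruvate carboxykinase, fell most, from 31.2 and 31.6 to 1.54 and 1.02 FPKM (log2 -4.18, limma adjusted p = 0.000138). The muscle glycogen phosphorylase Pygm went from 1.70 and 1.54 to 0.415 and 0.352 FPKM (log2 -1.26, adjusted p = 0.00138), and the phosphoglucomutase Pgm2 from 22.9 and 27.7 to 10.4 and 9.12 (log2 -1.33, adjusted p = 0.00211). With an Exosc3-depleted mean of 0.384 FPKM, Pygm entered the test through its level in Exosc3-present cells.

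The 2 that rose were Fbp2 and Gbe1, while 7 of the 11 tested genes of these branches fell. Fbp2, a fructose-1,6-bisphosphatase, which reverses the phosphofructokinase step, went from 1.07 and 0.937 to 4.34 and 2.96 FPKM (log2 1.45, adjusted p = 0.00266). Gbe1, the glycogen branching enzyme, went from 0.687 and 0.770 to 1.68 and 1.87 FPKM (log2 0.89, adjusted p = 0.00606). Gbe1 was chosen after its values were seen, since it is the other gene that rose. Hkdc1, a hexokinase family gene outside the set, was at 0.255 and 0.327 against 0.724 and 0.623 FPKM, too low for the test.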
